A study of Mus musculus with 20 samples.

Results

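The 34 mouse genes described here are genes of cell proliferation, followed by RNA sequencing in the liver of lean and of diabetic mice. They were chosen by gene symbol, before any filter, and fall into 3 roles. DNA replication has 13 genes (Cdc6, Cdt1, Mcm2, Mcm3, Mcm4, Mcm5, Mcm6, Mcm7, Pcna, Rrm1, Rrm2, Tyms and Tk1), and mitosis has 17 (Mki67, Top2a, Ccna2, Ccnb1, Ccnb2, Cdk1, Cdc20, Plk1, Aurka, Aurkb, Bub1, Bub1b, Birc5, Foxm1, Kif11, Cenpf and Tpx2). The other 4 (Ccnd1, Ccne1, Ccne2 and E2f1) regulate entry from G1 into S phase. All 34 symbols were found among the 46078 genes of the deposited count table, and all 34 were among the 15744 genes that passed the filter on low counts. Normal mice were wild type animals of the C57BL/6J strain given saline. The other 3 groups were db/db mice, whose cells all carry the mutant leptin receptor gene and which are used as a model of type 2 diabetes. Their groups received saline (model), 20 mg/kg of pioglitazone, an agonist of the nuclear receptor PPAR gamma (PGZ), or 200 mg/kg of an extract of Dendrocalamus latiflorus leaf, a bamboo (DLE), over 12 weeks. Each group had 4 libraries, named by group and animal number as in model_387, and a white tea extract group was not analysed here. Sex, age, cage, day and the background of the diabetic mice are not given in the sources used here. Genotype and background therefore cannot be told apart. The p-values weigh group differences against the spread between libraries, estimated over all 4 groups together unless another fit is named.

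Most hepatocytes of an adult liver are outside the cell cycle, and the genes of replication and mitosis are most active in cells that divide. How much of each member's RNA came from dividing cells was not tested. Cyclin D1 and cyclin E with their kinases release E2F factors, which switch on the genes that license replication origins and supply nucleotides. Later in the cycle the MuvB complex with B-MYB and FOXM1 switches on the genes of mitosis, largely through CHR and CCAAT elements in their promoters. In bulk RNA, fewer dividing cells and less RNA per dividing cell cannot be told apart.

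Promoter sequences of 5 members are shown because the results below turn on them: Mcm6 and Cdk1 were called higher and Tk1 lower in PGZ-treated db/db mice than in normal mice, and Mki67 and Top2a stood far above their other libraries in model_387. Each is the 250 bases before the RefSeq gene start, 5′ to 3′ on the gene's strand, on GRCm38.p6. Capitals mark, on either strand, CHR letters (TTTGAA), E2F letters (TTTCCCGC, TTTCGCGC, TTTGCCGC or TTTGGCGC) and CCAAT letters (CCAAT, or ATTGG when read from the other strand). The regions are chr1:128359706-128359955, chr10:69352913-69353162, chr7:135716380-135716629, chr11:99024190-99024439 and chr11:117826015-117826264, all on the minus strand.
Mcm6: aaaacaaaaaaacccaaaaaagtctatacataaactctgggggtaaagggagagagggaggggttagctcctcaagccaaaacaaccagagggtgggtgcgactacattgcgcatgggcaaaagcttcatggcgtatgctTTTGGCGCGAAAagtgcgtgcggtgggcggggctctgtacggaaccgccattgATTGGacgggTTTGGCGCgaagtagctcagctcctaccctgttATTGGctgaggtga
Cdk1: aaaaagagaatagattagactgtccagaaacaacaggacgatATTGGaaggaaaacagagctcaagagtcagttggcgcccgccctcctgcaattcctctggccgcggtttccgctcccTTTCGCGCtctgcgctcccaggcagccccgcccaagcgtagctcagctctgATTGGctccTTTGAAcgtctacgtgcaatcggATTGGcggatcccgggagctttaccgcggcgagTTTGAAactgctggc
Mki67: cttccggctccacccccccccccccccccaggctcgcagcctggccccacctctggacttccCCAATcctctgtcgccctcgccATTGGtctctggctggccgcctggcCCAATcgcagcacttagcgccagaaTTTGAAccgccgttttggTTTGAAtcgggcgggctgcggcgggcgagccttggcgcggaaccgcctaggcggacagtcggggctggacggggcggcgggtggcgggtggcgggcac
Top2a: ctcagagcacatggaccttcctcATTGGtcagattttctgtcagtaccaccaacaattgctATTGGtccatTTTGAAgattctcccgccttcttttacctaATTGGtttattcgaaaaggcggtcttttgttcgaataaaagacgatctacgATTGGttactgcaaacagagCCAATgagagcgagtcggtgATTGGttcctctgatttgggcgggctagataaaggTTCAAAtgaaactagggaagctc
Tk1: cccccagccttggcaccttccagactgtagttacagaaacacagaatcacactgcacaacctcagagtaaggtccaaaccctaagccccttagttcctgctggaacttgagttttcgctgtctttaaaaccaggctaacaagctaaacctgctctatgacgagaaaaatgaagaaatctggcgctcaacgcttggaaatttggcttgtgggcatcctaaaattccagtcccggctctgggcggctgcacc

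Mcm6 held 3 E2F matches, at 110, 106 and 47 bases before the start, of which the first 2 overlap on opposite strands, and 2 CCAAT matches. Cdk1 held 2 CHR matches at 71 and 15 bases, 1 E2F match at 131 bases and 3 CCAAT matches. Mki67 and Top2a, which like Cdk1 are mitosis genes, each held 2 CHR matches and no E2F match, with 3 CCAAT matches in Mki67 and 6 in Top2a. None of these letters was found in the Tk1 window. Promoters of 27 members were in the RefSeq table, and Ccne2, Aurkb, Ccna2, Ccnd1, Foxm1, Mcm4 and Tpx2 had no entry. CHR letters were in 6 of 13 mitosis promoters (46.2%) and 1 of 12 replication promoters (8.33%), against 16% of the 32851 promoters of the table. E2F letters were in 4 of 12 replication promoters (33.3%) and 1 of 13 mitosis promoters (7.69%), against 1.86% of the table, and CCAAT letters in 8 of 12 and 12 of 13 (66.7% and 92.3%), against 33.8%. Neither of the 2 G1 windows, those of Ccne1 and E2f1, held any of the 3 motifs. The E2f1 window (chr2:154569427-154569676) lay inside the gene as placed by GENCODE M21 (chr2:154559407-154569892). So did the windows of Cdc6 and Mcm7, which are among the replication promoters counted here and among the 4 with E2F letters. Of the 2 Mcm7 windows, 1 held the E2F match. A member was counted when any of its windows matched, while the share of the table counts each promoter singly. Other windows, among them those of Tk1, Cdk1, Pcna and Ccnb1, lay partly inside their GENCODE genes. What these windows hold or lack need not be true of the bases before those GENCODE gene starts. A match of letters is a description of the window and not of bound protein.

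Total counts were 16922833 to 25119799 per library. Levels are read counts scaled by library size and TMM (CPM), and a gene was called when its edgeR quasi-likelihood test, adjusted by Benjamini-Hochberg over all 15744 genes, gave p under 0.05. Called and not called refer to this test with all libraries unless another tool or fit is named. The samples are labelled liver, and hepatocyte markers summed to 35290 CPM or more in every library. In normal liver the members were low, and levels between genes are given per kilobase of exon. Tk1, the thymidine kinase of the salvage pathway, stood highest at 10.3 ± 3.11 CPM per kb (SD, n = 4), followed by Mcm7 at 5.47 ± 1.14 and Pcna at 4.88 ± 1.68. At the bottom of the order were Bub1, a spindle checkpoint kinase, at 0.0298 ± 0.0364 CPM per kb, Cenpf at 0.0307 ± 0.026 and Ccnb1 at 0.0401 ± 0.0322. Mcm7 and Pcna did not differ beyond their spread, nor did these 3 lowest genes. Bub1 had 0 reads in normal_346, normal_409, model_DLE_378 and model_DLE_401.

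**Figure D1:**
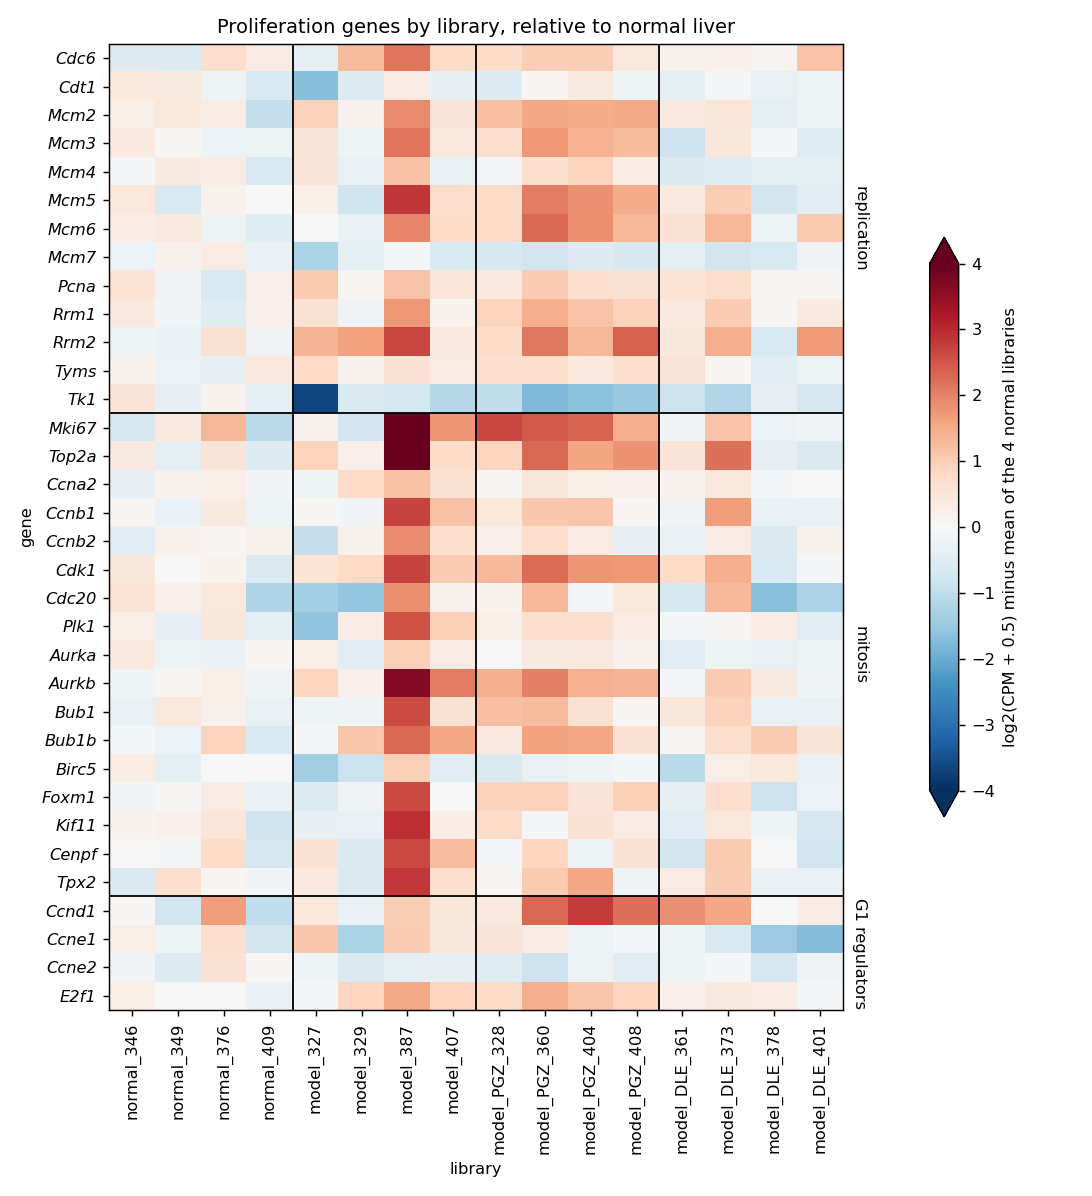
Level of each of the 34 genes (rows, by role) in each of the 16 libraries (columns, by group), as the difference in log2(CPM + 0.5) from the mean of the 4 normal libraries. The colour scale ends at 4 in each direction, which Mki67 and Top2a exceed in model_387. The column of model_387 is the darkest, the PGZ columns have log2 fold changes above 0 against normal in 10 of 13 replication rows and below 0 for Cdt1, Mcm7 and Tk1, and Tk1 is below the normal mean in every db/db library.

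A single library, model_387, stood apart. It held the highest level of all 16 libraries in 26 of the 34 members, in 17 of 17 mitosis genes, 8 of 13 replication genes and 1 of 4 G1 regulators. Relative to the median of the other 15 libraries, its median ratio was 8.39 over the mitosis genes and 2.66 over the replication genes. Mki67, the gene of the proliferation marker Ki-67, reached 76.5 CPM there and 0.548 to 13.1 CPM in the other libraries. The same library had the highest summed levels of several lists of white blood cell markers. Its neutrophil precursor markers summed to 1224 CPM (10 markers, against 27.8 to 49.9 CPM in normal libraries and 18.6 to 55.7 in the other model libraries), with Mpo at 244 CPM and Elane at 105. By mean log2(CPM + 0.5) these markers stood at 6.29 in model_387, 0.025 in model_327, -0.238 in model_329 and 0.530 in model_407. Normal libraries stood at -0.304 to 0.070. The mature neutrophil markers of model_387 summed to 1430 CPM, its Kupffer cell markers to 1941 (86.4 to 249 in normal libraries), its recruited macrophage markers to 1289, and its B and plasma cell markers to 172. Clec4f, a defining Kupffer cell marker, was at 14.8 CPM in model_387 and 11.8 CPM in model_327, both below the normal range of 36.8 to 136.6 CPM. It was at 85.6 CPM in model_329 and 196 CPM in model_407. The library model_327 also differed from its group, with acute-phase genes summing to 187200 CPM, against 88480 in model_387, 8664 in model_329, 17440 in model_407 and 10270 to 12660 in normal libraries. Of the 15 acute-phase genes 9 were called higher in model versus normal, and 8 without model_387. Neither the part of these cell markers nor that of the acute-phase genes in the members' levels was tested. The counts and medians of the model group, and the model values of the members described singly, are given with and without model_387, and counts without both libraries are among the alternatives.

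**Figure D2:**
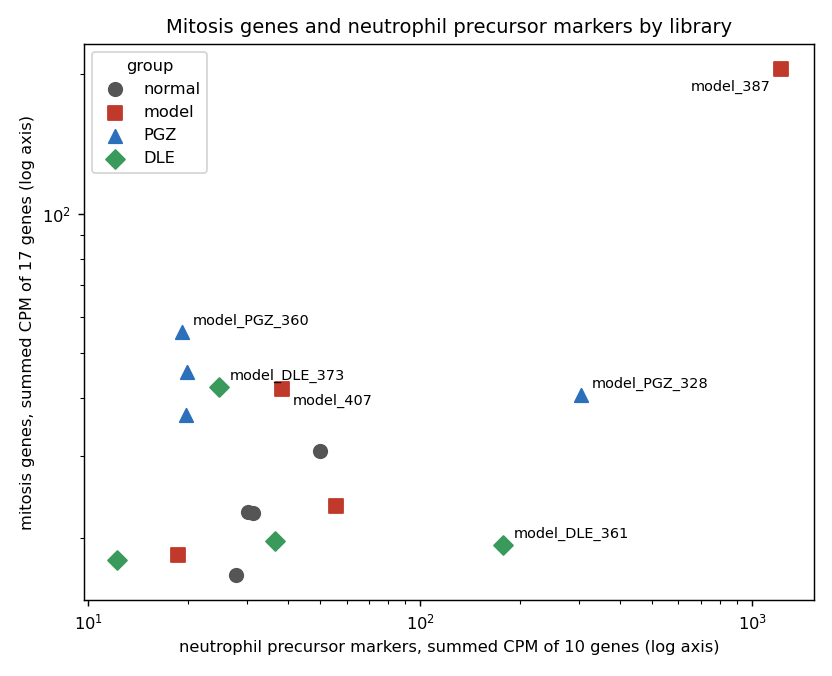
Summed level of the 17 mitosis genes against the summed level of the 10 neutrophil precursor markers, in CPM, both axes logarithmic, with 1 point per library. The library model_387 is highest on both axes (204.6 and 1224 CPM), while the libraries model_PGZ_360, model_PGZ_404 and model_PGZ_408 combine 36.8 to 55.6 CPM of mitosis genes with 19.1 to 19.9 CPM of precursor markers. The library model_PGZ_328 combines 40.7 CPM of mitosis genes with 304.6 CPM of precursor markers. The precursor sum includes Cebpe, whose mean was 33.4 CPM in normal and 18.5 CPM in PGZ mice.

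Of the 6 comparisons, PGZ versus normal held the most calls among the 34 members. There 6 members were called higher (Mcm2, Mcm6, Rrm2, Cdk1, Aurkb and E2f1) and 1 lower (Tk1). Over all genes tested, 6.15% were called higher and 6.08% lower, so that 17.6% of the members were called higher. The median log2 fold change of the members was 1.10, with 29 of 34 above 0, against 51.9% of all genes and a median of 0.03. Of the members, 13 had PGZ libraries that were all above all normal libraries (Aurkb, Cdk1, E2f1, Foxm1, Mcm2, Mcm3, Mcm5, Mcm6, Mki67, Rrm1, Rrm2, Top2a and Tyms), a pattern held by 16.5% of all genes, and 2 were all below (Mcm7 and Tk1; 15.7% of all genes). The 7 calls depended on the libraries used, as did calls over all genes (12.2% with all libraries). Without normal_409, model_PGZ_360 or model_PGZ_404, 0 members were called (7.03%, 5.33% and 5.87% of all genes). Without normal_346, normal_349, normal_376 or model_PGZ_408, 1 was called (8.32%, 8.17%, 6.44% and 7.04% of all genes). Without model_PGZ_328, 8 were called (11.7% of all genes). The member called without normal_376 was Ccnd1, which is not among the 7. Ccnd1 was also called beside the 7 without model_PGZ_328. The median kept a range of 0.94 to 1.20 in those 8 fits. DESeq2 called 11 members (19.1% of all genes) and limma voom 19 (40.2%). Those of DESeq2 were Ccnd1, E2f1, Aurkb, Cdk1, Mcm2, Mcm3, Mcm6, Mcm7, Rrm1, Rrm2 and Tk1. Limma voom called these 11 and also Mki67, Top2a, Foxm1, Bub1b, Cdc6, Mcm5, Pcna and Tyms. A value against normal holds the db/db genotype and the treatment together, and none of the 7 genes was called by edgeR in PGZ versus model.

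The model group differed from normal in 1 called member, Aurkb, which was higher. Of all genes, 9.08% were called, 6.18% higher and 2.9% lower. The median log2 fold change was 1.06 with 29 of 34 members above 0, against 54.7% of all genes. Without model_387 the median was 0.32, 24 members were above 0 and 0 were called, and Aurkb stood at log2 fold change 2.81 (edgeR adjusted p = 0.068). Without that library 5.04% of all genes were called. Only Cdk1 had model libraries all above the normal ones (6.57% of all genes), and only Tk1 had them all below (7.13%). Other tools called more members and more of all genes, 7 members with DESeq2 (15.5% of all genes) and 11 with limma voom (27.5%), of which Mcm7 and Tk1 were lower. Those of DESeq2 were Aurkb, Bub1b, Cdk1, Mki67, Top2a, Rrm2 and E2f1. Those of limma voom were Aurkb, Bub1b, Ccna2, Ccnb1, Cdk1, Mki67, Plk1, Cdc6, E2f1, Mcm7 and Tk1. In the same comparison 9 of 12 Kupffer cell markers, 8 of 12 recruited macrophage markers and 6 of the 7 mature neutrophil markers tested were called higher, with 0 of the 6 neutrophil precursor markers tested. Without model_387 these counts were 4, 4, 0 and 0.

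In PGZ versus model 0 of the 34 members were called, as were 0.0127% of all genes. With edgeR, 1 member was higher at an unadjusted p under 0.05 (Ccnd1; 4.07% of all genes) and 0 were lower (5.7%). DESeq2 called 0 members, and limma voom with quality weights called 6 higher (Ccnd1, Mcm2, Mcm3, Mcm4, Mcm6 and Rrm1), where it called 10.4% of all genes. The median log2 fold change was -0.15 with model_387 and 0.62 without it, where 29 rather than 13 of 34 members were above 0 (40.3% of all genes with all libraries).

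In DLE versus model 0 members and 0% of all genes were called by edgeR, with 11 members lower and 0 higher at an unadjusted p under 0.05 (9.44% and 4.85% of all genes). DESeq2 called 1 member lower, Aurkb, and limma voom 0. The median of -1.08 moved to -0.21 without model_387, with 15 rather than 6 members above 0 (48.2% of all genes with all libraries). The fit without model_329 called 2 members, both lower. In that fit 511 genes of the whole table were called, against 0 with all libraries.

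The members' median log2 fold change in DLE versus normal was 0.02, with 18 of 34 above 0 (53.9% of all genes). In that comparison edgeR, DESeq2 and limma voom each called 0 members, where edgeR called 3.54% of all genes, 1.84% higher and 1.7% lower. None had an unadjusted p under 0.05 with edgeR, against 8.61% of all genes higher and 7.19% lower. In DLE versus PGZ edgeR called 0 members (0.00635% of all genes), DESeq2 0 and limma voom 3, all lower (Cdk1, Mcm2 and Mcm3; 4.21% of all genes called). With edgeR 9 members were lower at an unadjusted p under 0.05 (4.21% of all genes) and 0 higher (5.42%). The DLE libraries were all below the PGZ libraries for 7 members, Aurka, Aurkb, E2f1, Mcm2, Mcm3, Mcm4 and Mki67 (4.2% of all genes), and the median was -0.80 with 4 of 34 above 0 (51.9% of all genes). The 3 comparisons against normal share their 4 normal libraries, and PGZ versus model and DLE versus model share the model libraries, so these comparisons are not independent.

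**Figure D3:**
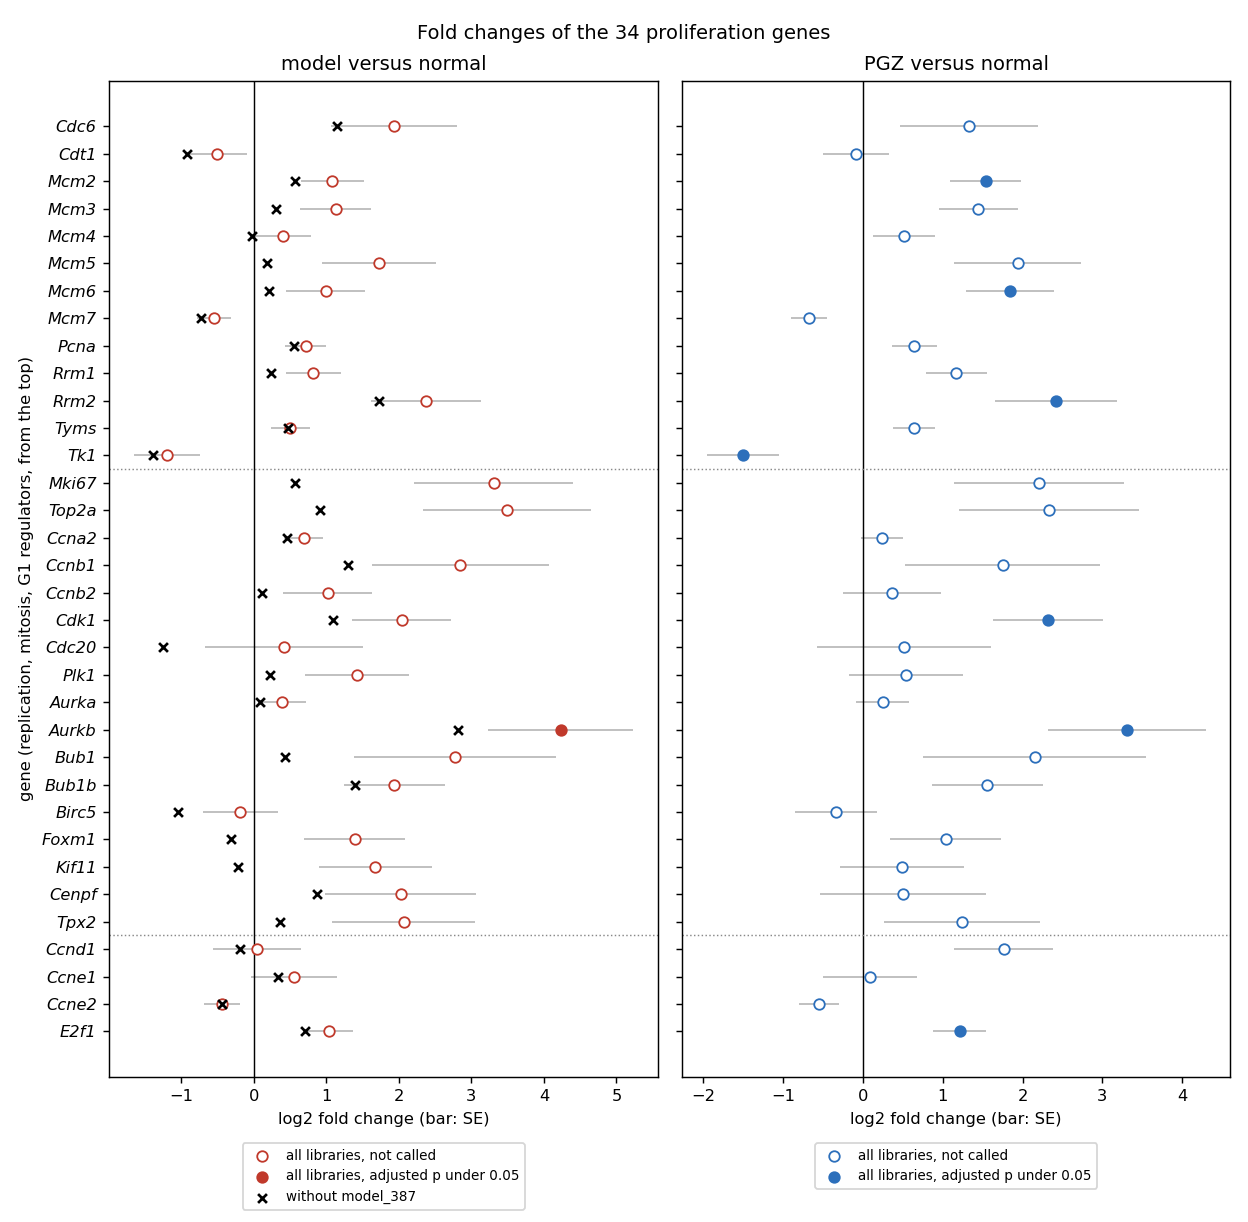
Log2 fold change of each member in model versus normal (left) and PGZ versus normal (right), with bars for the SE; filled circles are called genes and crosses give the model fold change without model_387. Most mitosis genes of the left panel move toward 0 without that library, and 7 genes are called on the right against 1 on the left.

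Levels per library follow the order of the animal numbers in each group, and gene coordinates are those of GENCODE M21 on GRCm38. Among the replication genes, the MCM proteins form the ring helicase that is loaded on origins before S phase. Mcm2 (ENSMUSG00000002870, chr6:88883474-88898780, minus strand) stood at 2.38, 2.8, 2.54 and 0.754 CPM in the normal libraries, 4.18, 2.26, 8.62 and 2.98 in the model libraries, 5.2, 6.7, 6.29 and 6.52 with PGZ and 2.74, 2.95, 1.37 and 1.68 with DLE. All 4 PGZ libraries lay above every normal and every DLE library, and model_387 was the highest of all. Mcm2 was higher in PGZ than in normal mice, with means of 6.18 ± 0.675 and 2.12 ± 0.925 CPM (n = 4 each; log2 fold change 1.53, SE 0.44, edgeR adjusted p = 0.034). The mean was 4.51 ± 2.85 CPM in the model group, and PGZ versus model was not called (log2 fold change 0.45, edgeR adjusted p = 0.76). The call held without normal_349 or model_PGZ_328 and was lost without any of the 6 others (adjusted p of up to 0.085).

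Mcm6 (ENSMUSG00000026355, chr1:128331590-128359664, minus strand) read 2.32, 2.53, 1.52 and 1.17 CPM in the normal libraries, 1.8, 1.4, 8.45 and 3.32 in the model libraries, 3.37, 10.5, 7.97 and 5.34 with PGZ and 2.98, 5.27, 1.53 and 4.29 with DLE. PGZ libraries lay above normal ones, and the DLE libraries spread over both ranges. Mcm6 was higher in PGZ than in normal mice, with means of 6.8 ± 3.12 and 1.88 ± 0.648 CPM (log2 fold change 1.85, SE 0.55, edgeR adjusted p = 0.039), and of the 8 fits without 1 library only that without model_PGZ_328 kept the call. It stood at 3.74 ± 3.25 CPM in the model group, and PGZ versus model was not called (log2 fold change 0.86, edgeR adjusted p = 0.62). Model versus normal was not called either (log2 fold change 0.99, SE 0.54, edgeR adjusted p = 0.24; 0.21 without model_387). Of the other MCM genes, Mcm3 and Mcm5 also had PGZ libraries above all normal ones but were not called (log2 fold changes 1.44 and 1.94, edgeR adjusted p = 0.064 and 0.12). Mcm4 overlapped between PGZ and normal (0.52, adjusted p = 0.38), and in DLE mice it lay below every PGZ and every model library, at 1.76 to 2.06 against 2.21 to 7 CPM in the model group (1.09% of all genes lay so; log2 fold change -1.02, SE 0.39, edgeR adjusted p = 0.26; -0.58 without model_387).

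Mcm7 read 14.1 to 16.4 CPM in PGZ libraries, below all normal ones at 19.8 to 30.0 CPM, and was not called (log2 fold change -0.68, SE 0.23, edgeR adjusted p = 0.064). The exons of Mcm7 share 321 bases (7.25%) with Ap4m1, a gene on the other strand, and overlap Cops6, Mir25 and Mir93, and whether strand was used in counting is not given in the sources used here. Ap4m1 itself was 52.5, 63.7, 85.1 and 54.6 CPM in normal and 40.5, 35.3, 36.9 and 36.6 CPM in PGZ libraries. The part of the overlap in the level of Mcm7 was not tested. The licensing factors Cdc6 and Cdt1, which load the helicase, were not called by edgeR in any of the 6 comparisons, and limma voom called Cdc6 higher in model and in PGZ versus normal. Cdc6 was low, at 0.0528 to 0.783 CPM in normal and 0.547 to 1.06 CPM in PGZ libraries, and Cdt1 had a log2 fold change of -0.09 in PGZ versus normal.

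The next genes supply nucleotides and hold the polymerase on DNA. Rrm2 (ENSMUSG00000020649, chr12:24708241-24714146, plus strand), the small subunit of ribonucleotide reductase that is made in S phase, stood at 0.369, 0.323, 1.03 and 0.411 CPM in the normal libraries, 2.04, 2.53, 5.84 and 0.808 in the model libraries, 1.15, 3.79, 2.02 and 4.61 with PGZ and 0.88, 2.23, 0.153 and 2.73 with DLE. PGZ libraries were all above normal ones, of which normal_376 was the highest. Rrm2 was higher in PGZ than in normal mice, with means of 2.89 ± 1.58 and 0.533 ± 0.332 CPM (log2 fold change 2.42, SE 0.76, edgeR adjusted p = 0.049), a call lost without a filter and in 7 of the 8 fits without 1 library (adjusted p of up to 0.12). The untreated db/db mice were at 2.81 ± 2.15 CPM in the model group, and PGZ versus model was not called (log2 fold change 0.04, edgeR adjusted p = 0.99). Model versus normal was not called (log2 fold change 2.37, SE 0.76, edgeR adjusted p = 0.061; 1.72 without model_387). Rrm1, the large subunit, had PGZ libraries at 8.56 to 13 CPM against 2.98 to 5.91 in normal ones (log2 fold change 1.17, SE 0.38, edgeR adjusted p = 0.056), and Tyms, which makes thymidylate, 5.72 to 7.22 against 3.28 to 5.69 CPM (log2 fold change 0.64, SE 0.27, edgeR adjusted p = 0.12). Neither gene was called by edgeR with all libraries, while limma voom called both in PGZ versus normal and DESeq2 called Rrm1.

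Pcna (ENSMUSG00000027342, chr2:132249162-132253314, minus strand), the sliding clamp of the polymerases that is also used in DNA repair, was 16.5, 10.2, 7.09 and 13 CPM in the normal libraries, 23.6, 11.7, 25.3 and 16 in the model libraries, 14.7, 23, 17.9 and 17.5 with PGZ and 16.6, 18.7, 12 and 11.7 with DLE. Its groups overlapped in all 6 comparisons, and none was called by edgeR with all libraries. Limma voom called Pcna in PGZ versus normal, and edgeR without model_329 called it higher in model versus normal. The log2 fold change was 0.64 in PGZ versus normal and 0.71 in model versus normal (SE 0.28 each; edgeR adjusted p = 0.14 and 0.12), and the latter was 0.55 without model_387. Reads of its pseudogene Pcna-ps2 came to 15 over all libraries.

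Tk1 (ENSMUSG00000025574, chr11:117815526-117826092, minus strand), the member with the highest level per kilobase in normal liver, was lower in PGZ than in normal mice, where 10 of the 13 replication genes had log2 fold changes above 0. Its levels were 74.8, 41.1, 57.4 and 40.7 CPM in the normal libraries, 3.6, 34.5, 31.8 and 23.3 in the model libraries, 26.1, 14.9, 16.2 and 18.2 with PGZ and 28.1, 22.9, 40.8 and 32 with DLE. Every PGZ and every model library lay below every normal library, and model_327 was lowest at 3.6 CPM. Its means were 18.9 ± 5.02 CPM in PGZ and 53.5 ± 16.2 CPM in normal mice (log2 fold change -1.50, SE 0.46, edgeR adjusted p = 0.042), a call lost with upper quartile scaling, without a filter and in 7 of the 8 fits without 1 library. The mean was 23.3 ± 14 CPM in the model group, and PGZ versus model was not called (log2 fold change -0.30, edgeR adjusted p = 0.86). Neither model versus normal (log2 fold change -1.20, SE 0.45, edgeR adjusted p = 0.1; -1.39 without model_387) nor DLE versus normal (log2 fold change -0.79, SE 0.45, edgeR adjusted p = 0.43) was called. The exons of Tk1 share 83 bases (1.6%) with Afmid on the other strand, and Afmid stood at 47.4, 31.5, 38.2 and 35.5 CPM in normal, 13.9, 8.47, 16.1 and 13.8 in PGZ and 0.778, 36.4, 14 and 21.1 in model libraries. Whether the reads of either gene were counted for both was not tested.

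Of the 17 mitosis genes, 2 were called in PGZ versus normal and 1 in model versus normal. Cdk1 (ENSMUSG00000019942, chr10:69335146-69352938, minus strand) is the kinase that drives entry into mitosis. It stood at 1.11, 0.645, 0.783 and 0.274 CPM in the normal libraries, 1.22, 1.51, 7.12 and 1.83 in the model libraries, 2.36, 5, 3.48 and 3.38 with PGZ and 1.47, 2.68, 0.255 and 0.631 with DLE. Both the model and the PGZ libraries lay above all normal libraries, and DLE libraries overlapped every group. Cdk1 was higher in PGZ than in normal mice, at 3.55 ± 1.09 and 0.703 ± 0.345 CPM (log2 fold change 2.32, SE 0.69, edgeR adjusted p = 0.039), a call kept only without model_PGZ_328 among the 8 fits without 1 library. It averaged 2.92 ± 2.81 CPM in the model group, and PGZ versus model was not called (log2 fold change 0.28, edgeR adjusted p = 0.91). Model versus normal gave log2 fold change 2.04, SE 0.69, edgeR adjusted p = 0.072, and 1.09 without model_387 (adjusted p = 0.29).

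Aurkb (ENSMUSG00000020897, chr11:69045647-69051664, plus strand), the kinase of the chromosomal passenger complex, was low in normal liver. Its levels were 0.0528, 0.161, 0.245 and 0.0686 CPM in the normal libraries, 0.632, 0.215, 7.58 and 2.08 in the model libraries, 1.2, 2.06, 1.19 and 1.09 with PGZ and 0.0977, 0.759, 0.305 and 0.0841 with DLE. PGZ libraries lay above all normal and all DLE libraries, while model_329 fell within the normal range. Aurkb was higher than in normal mice both in PGZ (log2 fold change 3.31, SE 0.99, edgeR adjusted p = 0.039) and in model mice (log2 fold change 4.23, SE 1.0, edgeR adjusted p = 0.018). The PGZ mean of 1.39 ± 0.45 CPM stood beside 2.63 ± 3.4 CPM in the untreated model group, and PGZ versus model was not called (log2 fold change -0.93, edgeR adjusted p = 0.73). The call in model mice was lost without normal_346, normal_349, normal_409 or model_387 (adjusted p of up to 0.068), and that in PGZ versus normal in 7 of 8 such fits (up to 0.1). Its partner Birc5 (survivin) had no such excess, with log2 fold changes of -0.34 in PGZ and -0.19 in model mice against normal (-1.05 without model_387), and its groups overlapped.

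Mki67 (ENSMUSG00000031004, chr7:135689784-135716361, minus strand) stood at 0.845, 2.31, 4.89 and 0.548 CPM in the normal libraries, 1.95, 0.753, 76.5 and 6.89 in the model libraries, 13.1, 11.2, 10.3 and 5.38 with PGZ and 1.51, 4.29, 1.32 and 1.51 with DLE. All PGZ libraries were above all normal and all DLE libraries, and the model group ran from 0.753 to 76.5 CPM. Mki67 was not called in PGZ versus normal (log2 fold change 2.20, SE 1.06, edgeR adjusted p = 0.18), nor in model versus normal (log2 fold change 3.31, SE 1.10, edgeR adjusted p = 0.07). Without model_387 the latter was 0.57 (adjusted p = 0.67), and PGZ versus model went from -1.10 to 1.64. With all libraries, DESeq2 and limma voom called Mki67 higher in model versus normal, and limma voom also in PGZ versus normal.

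Top2a (ENSMUSG00000020914, chr11:98992943-99024189, minus strand), the topoisomerase that untangles chromosomes for segregation, read 0.792, 0.269, 0.93 and 0.206 CPM in the normal libraries, 1.36, 0.645, 22 and 1.15 in the model libraries, 1.3, 4.44, 2.51 and 3.01 with PGZ and 0.928, 4.06, 0.305 and 0.168 with DLE. The library model_387 was far above the other 3 model libraries, and PGZ libraries were above normal ones. Top2a was not called by edgeR in PGZ versus normal (log2 fold change 2.32, SE 1.13, edgeR adjusted p = 0.18). Nor was Top2a called in model versus normal (log2 fold change 3.49, SE 1.16, edgeR adjusted p = 0.07), where the value without model_387 was 0.91. With all libraries, DESeq2 called Top2a higher in model versus normal, and limma voom in PGZ versus normal. Ccnb1 (ENSMUSG00000041431, chr13:100778650-100786570, minus strand), cyclin B1, was near the detection limit at 0.211, 0.0538, 0.343 and 0.0686 CPM in the normal libraries, 0.195, 0.108, 3.81 and 0.978 in the model libraries, 0.385, 0.887, 0.924 and 0.182 with PGZ and 0.0977, 1.61, 0.0509 and 0.0421 with DLE. It was highest in model_387 and next in model_DLE_373, its groups overlapped in all 6 comparisons, and it was not called (log2 fold change 1.75, SE 1.22, edgeR adjusted p = 0.34 in PGZ versus normal).

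The remaining mitosis members were not called by edgeR in any comparison. In model versus normal DESeq2 called Bub1b higher and limma voom Bub1b, Ccna2 and Plk1, and in PGZ versus normal limma voom called Bub1b and Foxm1. Foxm1, a factor that drives mitosis genes, had PGZ libraries at 2.16 to 3.06 CPM above normal ones at 1.03 to 1.81 (log2 fold change 1.03, SE 0.69, edgeR adjusted p = 0.33). The checkpoint kinases Bub1 and Bub1b had log2 fold changes in PGZ versus normal of 2.15 and 1.55 with overlapping groups, and those of Cdc20, Plk1, Aurka, Kif11, Cenpf, Ccna2, Ccnb2 and Tpx2 were 0.24 to 1.24. The same 8 genes had 0.39 to 2.07 in model versus normal. Without model_387 Cdc20, the activator of the anaphase complex, stood at -1.25, Kif11, a spindle motor, at -0.23 and Foxm1 at -0.32, below 0, while Bub1b was at 1.39. Ccna2 shares 510 exon bases (12.5%) with Exosc9 on the other strand, and Ccnb1-ps had 0 reads.

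**Figure D4:**
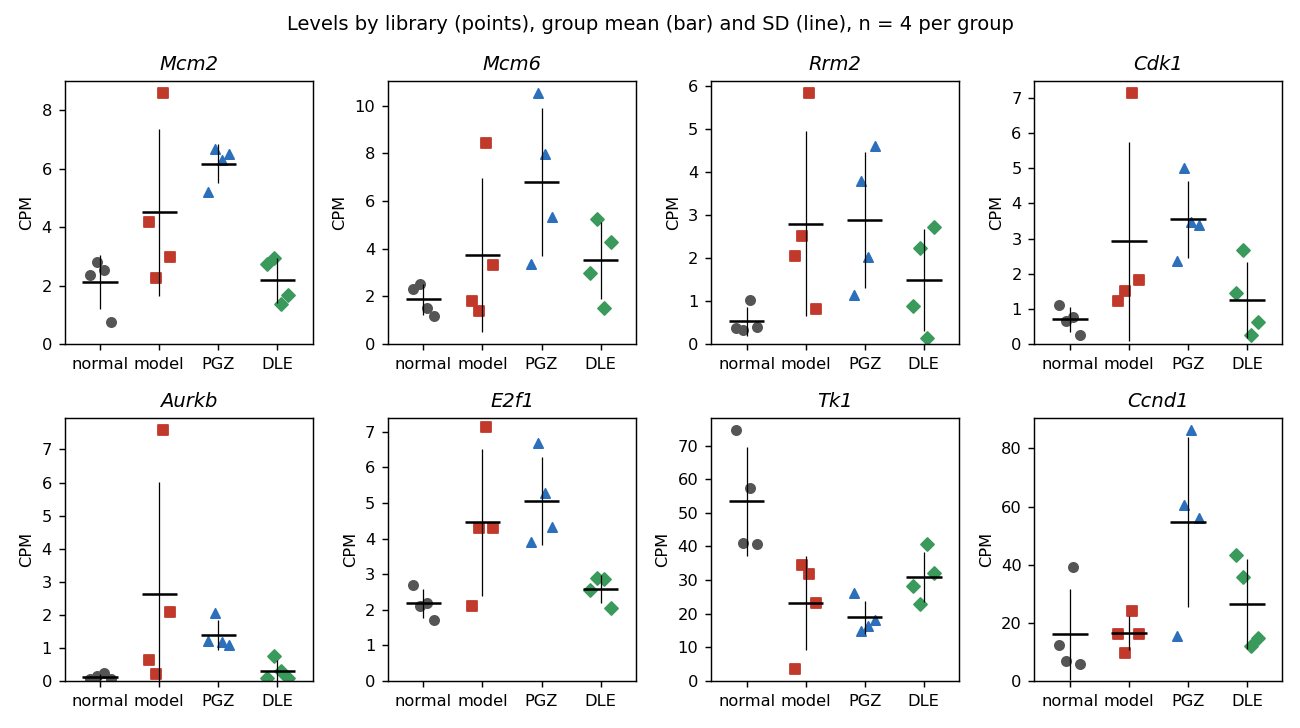
Level in CPM of Mcm2, Mcm6, Rrm2, Cdk1, Aurkb, E2f1, Tk1 and Ccnd1 in each library, by group, with the group mean as a bar and the SD as a line that is not drawn below 0. The point of model_387 is the highest of its group for every gene shown but Tk1. The 4 PGZ points lie above the 4 normal points for the first 6 genes and below them for Tk1.

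Among the G1 regulators, E2f1 (ENSMUSG00000027490, chr2:154559407-154569892, minus strand) encodes the factor that switches on S phase genes. It was 2.69, 2.1, 2.2 and 1.71 CPM in the normal libraries, 2.09, 4.3, 7.12 and 4.29 in the model libraries, 3.9, 6.7, 5.28 and 4.33 with PGZ and 2.54, 2.9, 2.85 and 2.06 with DLE. PGZ libraries lay above all normal and all DLE libraries, and model_327 was the only model library within the normal range. E2f1 was higher in PGZ than in normal mice, at 5.05 ± 1.24 and 2.18 ± 0.403 CPM (log2 fold change 1.21, SE 0.34, edgeR adjusted p = 0.028), a call kept in 3 of 8 fits without 1 library and lost without a filter. Its mean came to 4.45 ± 2.06 CPM in the model group, and PGZ versus model was not called (log2 fold change 0.18, edgeR adjusted p = 0.88). Model versus normal was not called (log2 fold change 1.03, SE 0.34, edgeR adjusted p = 0.063; 0.71 without model_387).

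Ccnd1 (ENSMUSG00000070348, chr7:144929931-144939925, minus strand), cyclin D1, stood at 12.3, 6.94, 39.1 and 5.69 CPM in the normal libraries, 16.1, 9.68, 23.9 and 16.3 in the model libraries, 15.5, 60.4, 86.3 and 56 with PGZ and 43.3, 35.9, 12.1 and 14.7 with DLE. The libraries model_PGZ_360, model_PGZ_404 and model_PGZ_408 were the 3 highest of all 16, model_PGZ_328 lay within the normal range, and normal_376 was far above the other normal libraries. Ccnd1 was not called by edgeR with all libraries against normal (log2 fold change 1.76, SE 0.62, edgeR adjusted p = 0.073). Nor was Ccnd1 called against model (log2 fold change 1.73, SE 0.62, edgeR adjusted p = 0.42). Against normal, DESeq2 and limma voom called Ccnd1 higher, as did edgeR without normal_376 or without model_PGZ_328. Against model, limma voom called Ccnd1 higher. Its exons share 1100 bases (23.4%) with LTO1 on the other strand, and LTO1 followed the same order with 23.1, 57, 79.9 and 54.9 CPM in the PGZ libraries and 24.1, 21.8, 43 and 21.2 in the normal ones. Reads of the shared bases cannot be told apart without strand.

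Ccne1 (ENSMUSG00000002068, chr7:38097984-38107534, minus strand), cyclin E1, read 2.8, 1.99, 3.87 and 1.17 CPM in the normal libraries, 5.35, 0.645, 5.18 and 3.27 in the model libraries, 3.46, 2.94, 1.89 and 2.19 with PGZ and 1.96, 1.34, 0.509 and 0.337 with DLE. Its DLE libraries were low, although the groups overlapped, and it was not called (log2 fold change -1.80, SE 0.61, edgeR adjusted p = 0.23 in DLE versus model, and -1.58 without model_387; log2 fold change 0.09, SE 0.59, edgeR adjusted p = 0.94 in PGZ versus normal). Ccne2, cyclin E2, was at 6.35 to 14.3 CPM in normal and 5.08 to 8.05 CPM in PGZ libraries (log2 fold change -0.55, SE 0.25, edgeR adjusted p = 0.14). It shares 609 exon bases (17.4%) with Ints8 on the other strand.

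Replication and mitosis genes were compared library by library as the mean log2(CPM + 0.5) of each role. The replication mean was 2.40 to 2.98 in PGZ libraries, above all normal libraries at 1.86 to 2.23, and the mitosis mean was 1.09 to 1.63 against 0.13 to 0.89. In the DLE group the ranges were 1.76 to 2.38 and 0.24 to 1.38, and model_DLE_373 was the highest in both. In the model group model_327 and model_329 lay at 1.97 and 2.06 for replication and 0.37 and 0.41 for mitosis, within the normal ranges. The library model_407 held 2.21 and 1.31, and model_387 held 3.42 and 3.12. The difference of replication minus mitosis was 1.53 ± 0.25 for the normal group (SD, n = 4), 1.12 ± 0.64 for model mice, 1.44 ± 0.15 for PGZ and 1.52 ± 0.40 for DLE, and the groups overlapped. The smallest difference, 0.31, was in model_387. Over genes, the median log2 fold change in PGZ versus normal was 1.17 for replication and 1.03 for mitosis. In model versus normal it was 0.82 and 1.94 with all libraries and 0.23 and 0.42 without model_387. In PGZ versus model the medians were 0.14 and -0.66 with all libraries and 0.70 and 0.71 without model_387.

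**Figure D5:**
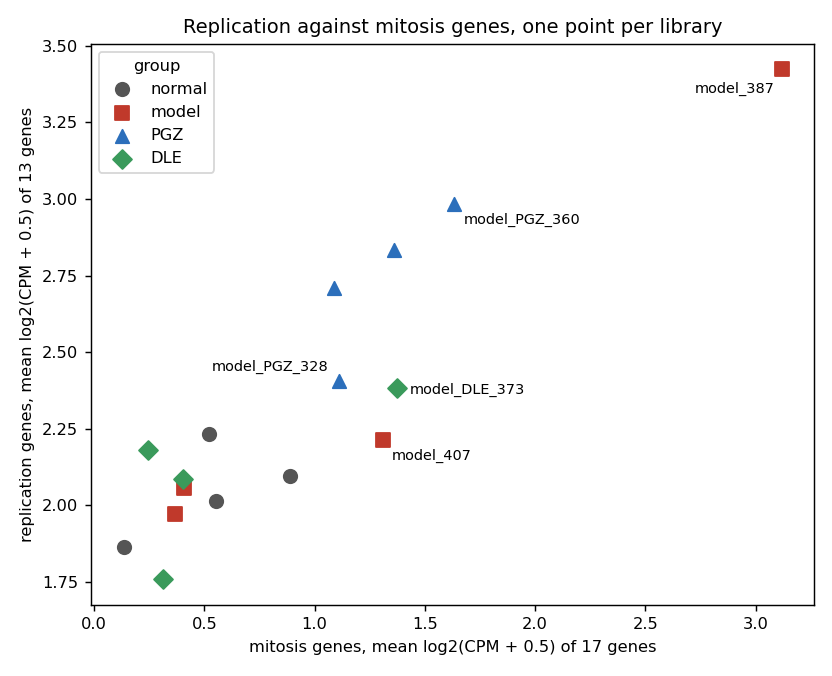
Mean log2(CPM + 0.5) of the 13 replication genes against that of the 17 mitosis genes, with 1 point per library. The library model_387 lies alone at the upper right (3.42 and 3.12), and the 4 PGZ libraries lie above every normal library on both axes.

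The other genes of the cell cycle were read from lists. The shares of all genes called higher and lower were 6.18% and 2.9% in model, 6.15% and 6.08% in PGZ and 1.84% and 1.7% in DLE versus normal. Of 40 further replication genes, 2 were called higher and 1 lower in model versus normal, 4 higher and 2 lower in PGZ versus normal, and 0 higher and 1 lower in DLE versus normal. Without model_387, Mcm10 alone was called in model versus normal. It helps to start the helicase and was lower in all 3 comparisons, from 175 ± 32.7 CPM in normal to 22.4 ± 14.7 in model (log2 fold change -2.96, SE 0.38, edgeR adjusted p = 0.00032), 21.5 ± 3.59 in PGZ (log2 fold change -3.02, SE 0.38, edgeR adjusted p = 0.00018) and 24.6 ± 5.86 in DLE libraries (log2 fold change -2.83, SE 0.38, edgeR adjusted p = 0.00038). Cdc45, a part of the active helicase, and Clspn, a checkpoint adaptor, were called higher in model than in normal mice with all libraries (log2 fold change 1.55, SE 0.43, edgeR adjusted p = 0.035; log2 fold change 4.48, SE 1.3, edgeR adjusted p = 0.042). In PGZ against normal mice Lig1, the ligase of replication, was higher (log2 fold change 1.94, SE 0.45, edgeR adjusted p = 0.012; means 1.43 ± 0.758 CPM in normal, 3.72 ± 2.23 in model and 5.53 ± 1.23 in PGZ mice). Gins2, a helicase subunit, was lower (log2 fold change -1.22, SE 0.32, edgeR adjusted p = 0.021; means 61.8 ± 40.6, 33.7 ± 8.13 and 26.5 ± 2.47 CPM).

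Of 60 further mitosis genes 53 were tested, with 1 called higher in model versus normal (Nusap1, a spindle protein; log2 fold change 2.12, SE 0.59, edgeR adjusted p = 0.037), 2 higher in PGZ versus normal and 0 in DLE versus normal. Nusap1 was not called without model_387. With all libraries DESeq2 called 9 of these genes in model versus normal and limma voom 13. The 2 in PGZ versus normal were Mad2l1, a spindle checkpoint protein (log2 fold change 1.31, SE 0.41, edgeR adjusted p = 0.046), and Nek2, a centrosome kinase (log2 fold change 1.44, SE 0.45, edgeR adjusted p = 0.049). Their model means were 5.61 ± 2.82 and 3.06 ± 1.4 CPM, against 6.85 ± 1.95 and 4.2 ± 1.23 CPM in PGZ mice. Of 13 further G1 genes 0 were called by edgeR in any of these 3 comparisons. Of 24 inhibitors of the cycle 22 were tested, with 5 higher and 1 lower in model, 4 higher and 2 lower in PGZ and 2 higher and 1 lower in DLE against normal. Without model_387, 4 were higher and 1 lower in model mice. Cdkn2c, which blocks the kinases that partner cyclin D, was at 2.48 ± 0.864 CPM in normal mice and higher in all 3 db/db groups, at 9.13 ± 2.85 CPM in model, 9.44 ± 0.661 in PGZ and 9.27 ± 2.81 in DLE mice (edgeR adjusted p = 0.0016, 0.00083 and 0.0013). E2f7, a repressor of E2F targets, was at 12.5 ± 4.35 CPM in normal mice and lower in the same groups, at 1.8 ± 0.719, 0.553 ± 0.201 and 0.451 ± 0.454 CPM (edgeR adjusted p = 0.007, 0.00031 and 0.0003). Ccng1, a p53 target, was higher in model than in normal mice (log2 fold change 1.79, SE 0.33, edgeR adjusted p = 0.0051). Btg1, an antiproliferative gene, stood at 46.9 ± 22.8 CPM in model and 49.6 ± 16 CPM in PGZ mice and was called higher than normal in both (log2 fold change 1.33, SE 0.31, edgeR adjusted p = 0.013 in PGZ). Cdkn1a, which encodes the kinase inhibitor p21, was higher than in normal mice (0.764 ± 0.39 CPM) in model (22.1 ± 21.8 CPM), PGZ (11.8 ± 9.33 CPM) and DLE mice (17.2 ± 21.1 CPM; log2 fold change 4.47, SE 0.98, edgeR adjusted p = 0.018 for DLE). DLE versus model was not called for Cdkn1a (log2 fold change -0.36, SE 0.81, edgeR adjusted p = 0.87).

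Markers of other cells also differed between PGZ and normal mice. In PGZ versus normal 7 of 12 recruited macrophage markers were called higher, with sums of 129 to 321 CPM against 23.9 to 36.2, and 4 of 12 Kupffer cell markers, with 267 to 639 against 86.4 to 249 CPM. Of 8 stellate cell and fibroblast markers 4 were called higher, at 120 to 621 against 73.3 to 115 CPM, and of 8 endothelial markers 3, at 148 to 212 against 111 to 125 CPM. Their part in the members' levels was not tested. Neutrophil precursor markers summed to 305 CPM in model_PGZ_328, where mitosis genes summed to 40.7 CPM. The precursor sums were 19.1 to 19.9 CPM in model_PGZ_360, model_PGZ_404 and model_PGZ_408, against 27.8 to 49.9 CPM in normal libraries. Cebpe, 1 of the 10 markers, alone had means of 33.4 ± 8.55 CPM in normal and 18.5 ± 3.94 CPM in PGZ mice. By mean log2(CPM + 0.5) of the 10 markers, these PGZ libraries stood at -0.242, 0.421 and -0.155. Normal libraries stood at -0.304 to 0.070. Mpo was at 0 CPM in model_PGZ_360 and model_PGZ_408 and 0.836 CPM in model_PGZ_404, against 0 to 0.0489 CPM in normal libraries. Ngp was at 0.121, 0.137 and 1.76 CPM in these libraries, in that order, and at 0 CPM in normal ones. Their mitosis genes summed to 55.6, 36.8 and 45.6 CPM, against 16.7 to 30.7 CPM in normal libraries. The part of neutrophil precursors in the mitosis levels was not tested. In model_DLE_361, precursor markers summed to 177 CPM and mitosis genes to 19.4. In model_DLE_373, the DLE library with the most mitosis RNA (42.3 CPM), precursor markers summed to 24.8 CPM and stellate markers to 413.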

How the data were processed

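Total RNA of liver was sequenced from 16 mice analysed here, 4 in each of 4 groups assigned from the labels. The deposited values are whole-number counts of reads per gene, not normalized by the authors, in 1 table with 1 column per library. Per the submitters' processing notes, the build was GRCm38 and the tools, with no role or order given, were HISAT2 2.1.0, StringTie 1.3.3b, DESeq2 1.28.0, FastQC 0.11.5 and CASAVA 1.8.2. Neither the annotation nor the use of strand in counting is given in the sources used here. A white tea extract group of 4 libraries was not analysed here. The design took all groups with values in a single fit, hence 4.

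Counts were tested with edgeR 4.0.16 (R 4.3.3; robust quasi-likelihood fit, filterByExpr, TMM scaling) over 15744 genes, two-sided, with Benjamini-Hochberg adjustment and a threshold of 0.05. SE is the size of the log2 fold change divided by the square root of F. Levels are CPM after TMM, list means use log2(CPM + 0.5), and levels between genes are CPM per kb of exon in GENCODE M21, to which 45229 of 46078 gene IDs (98.2%) matched. DESeq2 1.42.0, limma 3.58.1 (voom with quality weights), RLE and upper quartile scaling, no filter, a filter of at least 1 CPM in 4 libraries, pseudocounts of 0.1 and 1, fits of only the groups compared, and fits without each library or without the pair model_327 and model_387 were tried as alternatives. The test was tested on simulated data. Promoters came from the RefSeq table on GRCm38.p6. No pair of libraries of a group agreed within counting noise.

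The members and the gene lists were chosen with earlier results of these data known. Values per library are given for Mki67, Top2a, Cdk1, Ccnb1, Pcna, Mcm2, Mcm6, Rrm2, Ccnd1, Ccne1 and E2f1 and for every member called in any of 6 comparisons, and up to 3 called genes with the smallest p are named per further list and comparison. Other genes and libraries named were chosen after their values were seen.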

Additional observations from a re-analysis of the deposited data

Results flagged for a closer look

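In 9 of 136 combinations of a member and a group, 1 library lay so far from the other 3 of its group that its gap to the nearest passed Dixon's critical value. Chance alone gives about 1 such case in 20 groups. In normal mice, Mcm2 was 0.754 CPM in normal_409 against 2.38 to 2.80 CPM in the others, and Rrm2 was 1.03 CPM in normal_376 against 0.323 to 0.411. In model mice the library was model_387 both times, with Top2a at 22.0 CPM against 0.645 to 1.36 and Foxm1 at 11.1 CPM against 0.778 to 1.32. With PGZ, Aurkb was 2.06 CPM in model_PGZ_360 against 1.09 to 1.20, and Foxm1 was 2.16 CPM in model_PGZ_404 against 2.98 to 3.06. With DLE, Cdc6 was 1.22 CPM in model_DLE_401 against 0.356 to 0.402. In model_DLE_373, Mki67 was 4.29 CPM against 1.32 to 1.51, and Ccnb1 was 1.61 CPM against 0.0421 to 0.0977. The replication genes had no such case in model_387, where 8 of 13 were the highest of all 16 libraries.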

How the results depend on the processing

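No paired analysis was possible because the groups share no animal number. Counts of called members changed with the setting, and the cause was not tested. In model versus normal the count of 1 became 7 with DESeq2, 11 with limma voom, 0 with only the groups compared and 0 without the pair model_327 and model_387, and 0 to 7 without 1 library. In PGZ versus normal the count of 7 became 4 with no filter, 11 with DESeq2, 19 with voom and 14 with only the groups compared, and 0 to 8 without 1 library. With upper quartile scaling the 7 were all higher. Counts of 0 became 6 with voom in PGZ versus model, 1 with DESeq2 and 0 to 2 without 1 library in DLE versus model, and 3 with voom in DLE versus PGZ. PGZ versus model, DLE versus normal and DLE versus PGZ kept 0 without any 1 library. Over all genes, calls in model versus normal were 1429, and 2439 with DESeq2, 4325 with voom, 226 with only the groups compared, 438 without the pair, 952 with no filter and 505 to 2909 without 1 library. In PGZ versus normal they were 1926, and 3004, 6333 and 4363 with the first 3 of these and 850 to 1880 without 1 library. Filtering at 1 CPM in 4 libraries left 33 members tested. No scaling moved the median of all genes by over 0.1.

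Some log2 fold changes of genes that were not called changed sign. With voom, Pcna (0.20), Mki67 (0.48) and Top2a (1.15) turned positive in PGZ versus model, Mcm6 was 0.001 in DLE versus model, and Mcm2 was -0.036 and Mki67 0.65 in DLE versus normal. Without the pair, Ccnd1 (-0.31) and Ccne1 (-0.32) turned negative in model versus normal, and Pcna (0.40), Mki67 (1.38), Top2a (1.64), Ccnb1 (0.11) and Ccne1 (0.41) turned positive in PGZ versus model. So did Mcm6 (0.57), Pcna (0.089) and Top2a (0.60) in DLE versus model. Upper quartile scaling gave Pcna 0.016 in PGZ versus model and Mki67 0.056 in DLE versus normal, where Mki67 was also 0.010 with no filter, 0.007 with DESeq2 and 0.002 with only the groups compared. Fits without 1 library spanned 0 in 15 cases. In model versus normal, Ccnd1 was -0.24 to 0.99. In PGZ versus model, Pcna was -0.24 to 0.10, Rrm2 -0.29 to 0.70, Mki67 -1.50 to 1.64, Top2a -1.55 to 1.41, Ccnb1 -1.47 to 0.45 and E2f1 -0.053 to 0.50. In DLE versus model, Mcm6 was -0.36 to 0.69, Top2a -3.74 to 0.38 and Ccnb1 -4.22 to 0.059. In PGZ versus normal, Ccne1 was -0.14 to 0.40. In DLE versus normal, Mcm2 was -0.24 to 0.20, Mki67 -0.58 to 0.79, Top2a -0.26 to 1.66 and Ccnb1 -1.38 to 1.94. At these depths 1 read is near 0.05 CPM, so Bub1, Ccnb1, Cdc6, Aurkb and Cenpf rest on few reads in normal libraries.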
